A study of Mus musculus with 9 samples.

Results

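The genes described here are 8 T-box transcription factors of the pharynx and of mesenchyme: Tbx1, Tbx2, Tbx3, Tbx4, Tbx5, Tbx15, Tbx18 and Tbx20. They were chosen by name, and all 8 were found among the 19505 gene symbols measured, each by a single transcript cluster (a set of probes for 1 gene). RNA came from thymic lobes of C57BL/6 mouse embryos at e13.5, measured on Clariom S arrays. Wild type lobes, lobes of Foxn1933/1089 mice (Foxn1 mutants) and lobes of Tbx1neo2/neo2 mice (Tbx1 mutants) had 3 arrays each, 9 in all, and no other allele or treatment is named. The Foxn1 mutants are compound heterozygotes with a different mutant allele of the thymic epithelial factor Foxn1 on each chromosome. The neo2 allele of Tbx1 is a hypomorph, known to lower the expression of the gene without removing it. No label says whether a sample was 1 embryo or a pool, or that samples came from separate embryos, so p-values measure the spread between these samples only.

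T-box factors bind DNA through a shared domain, the T-box, and pattern organs from the pharynx to the heart and limbs. Tbx1 patterns the pharyngeal pouches, of which the third gives rise to the thymus and parathyroid, and Tbx2 and Tbx3 are repressors. Tbx4 and Tbx5 act in limb, lung and heart, Tbx15 and Tbx18 in mesenchyme, with Tbx18 also a marker of the epicardium, the mesothelial cover of the heart, and Tbx20 acts in the heart and in motor neurons. The thymic lobe at this age is made of epithelium, incoming blood progenitors, vessels and a capsule of neural crest mesenchyme.

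Values are log2 levels as deposited, and each was set against the negative-control features of the same array, whose median lay between 4.27 and 4.94 and whose 95th percentile lay between 8.03 and 9.70. On 2 arrays Prss16, a protease of cortical thymic epithelium, lay near the negative controls. It read 4.24 on wild type replicate 1 and 4.45 on Foxn1 mutant replicate 2, and 13.87 to 14.43 on the other 7 arrays. Wild type replicate 1 carried neuronal genes (a list mean of 11.32 against 5.47 to 5.96 elsewhere) and Foxn1 mutant replicate 2 carried heart genes (the atrial myosin gene Myl7 at 10.71 against 3.55 to 6.53 elsewhere). The heart muscle list was also raised on wild type replicate 2 (a mean of 6.10, against 6.92 on Foxn1 mutant replicate 2 and 4.44 to 4.99 on the rest). On these 2 arrays the thymic epithelium list had 8 and 9 of its 11 genes over the negative-control median, with the keratin gene Krt8 at 12.12 and 12.37 (15.62 to 15.97 elsewhere). The members' differences from wild type are given with and without these 2 arrays. In bulk lobes, fewer cells of a type and less RNA per cell cannot be told apart.

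Only Tbx2 exceeded the 95th percentile of the negative controls. It did so on all 9 arrays, in part narrowly (it lay at percentile 95.3 to 97.5 of them). The other 7 members exceeded the 95th percentile on 0 of 9 arrays. Of all clusters, 16.4% to 28.3% exceeded it, depending on the array. Tbx5 and Tbx18 exceeded the negative-control median on all 9 arrays, Tbx1, Tbx3 and Tbx15 on 7, Tbx4 on 5 and Tbx20 on 3. Per array, 52.6% to 58.4% of all clusters exceeded this median. Tbx18 lay 0.44 to 2.78 log2 units over that median, Tbx5 0.18 to 2.06, and Tbx3 between 0.42 below and 0.85 above it. For Tbx1, Tbx3, Tbx4, Tbx15 and Tbx20 at least 2 of the 9 values lay at or under that median, where features without a target lie, and their differences below are differences between values near background. Tbx5 and Tbx18 also stayed within the range of the negative controls, at percentile 53.6 to 81.75 and 57.7 to 89.8 of them.

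**Figure D1:**
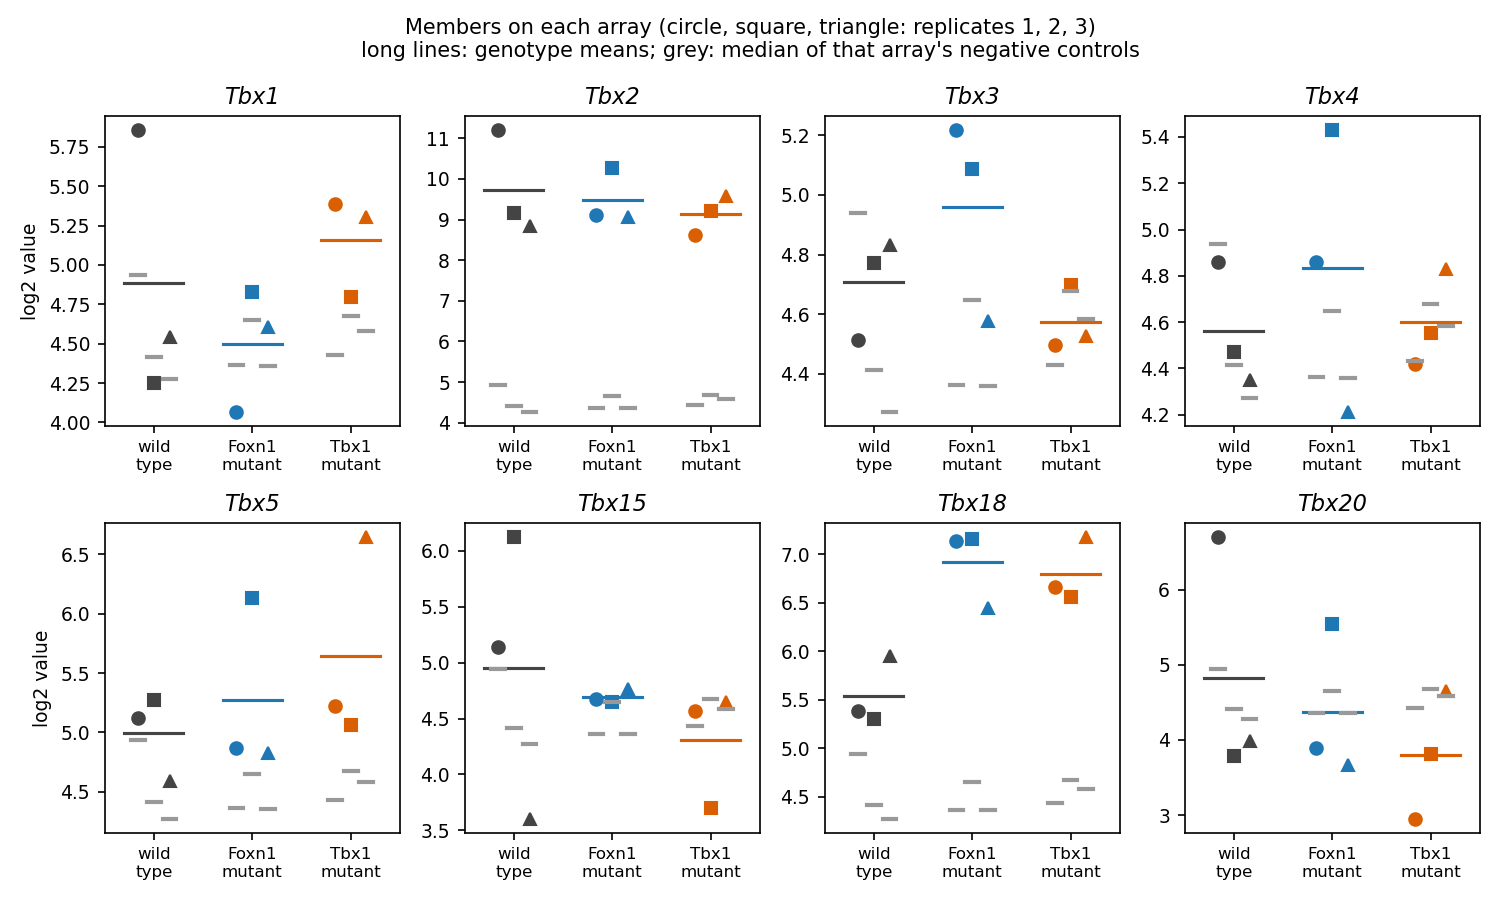
Log2 value of each member (vertical axis, a scale of its own in each panel) on the 3 arrays of each genotype; symbols mark replicates 1 to 3, long lines the genotype means, and short grey lines the negative-control median of the same array. Tbx2 lies far above the grey lines on every array, and in Tbx18 all 6 mutant arrays lie above the 3 wild type arrays.

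The comparisons of each mutant with wild type ask which genes differ in lobes with impaired Foxn1 or Tbx1, and both use the same 3 wild type arrays. With limma and Benjamini-Hochberg adjustment over 22206 clusters, Foxn1 mutants against wild type gave 0 of 8 members under an adjusted p of 0.05 (the lowest was 1.00), as against 0% of all clusters. Tbx1 mutants against wild type also gave 0 of 8 (lowest adjusted p = 0.723; 0.0135% of all clusters), and the mutants against each other 0 of 8 (lowest adjusted p = 1.00; 0% of all clusters). The F test for any difference among the genotypes called 0 of 8 (lowest adjusted p = 0.847, Tbx18; 0.00901% of all clusters). At an unadjusted p under 0.05 there was 1 of 8 members, Tbx18, in the first comparison (4.04% of all clusters), 1 of 8, again Tbx18, in the second (3.79%) and 0 of 8 in the third (2.98%). The median difference of the 8 members was -0.00 in Foxn1 mutants and -0.05 in Tbx1 mutants against wild type, and 0.29 between the mutants; over all clusters the medians were 0.02, 0.01 and 0.01. Without the 2 arrays that stood apart the members' medians were 0.01, 0.16 and -0.03, and the positive differences between the mutants went from 6 of 8 to 2 of 8.

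**Figure D2:**
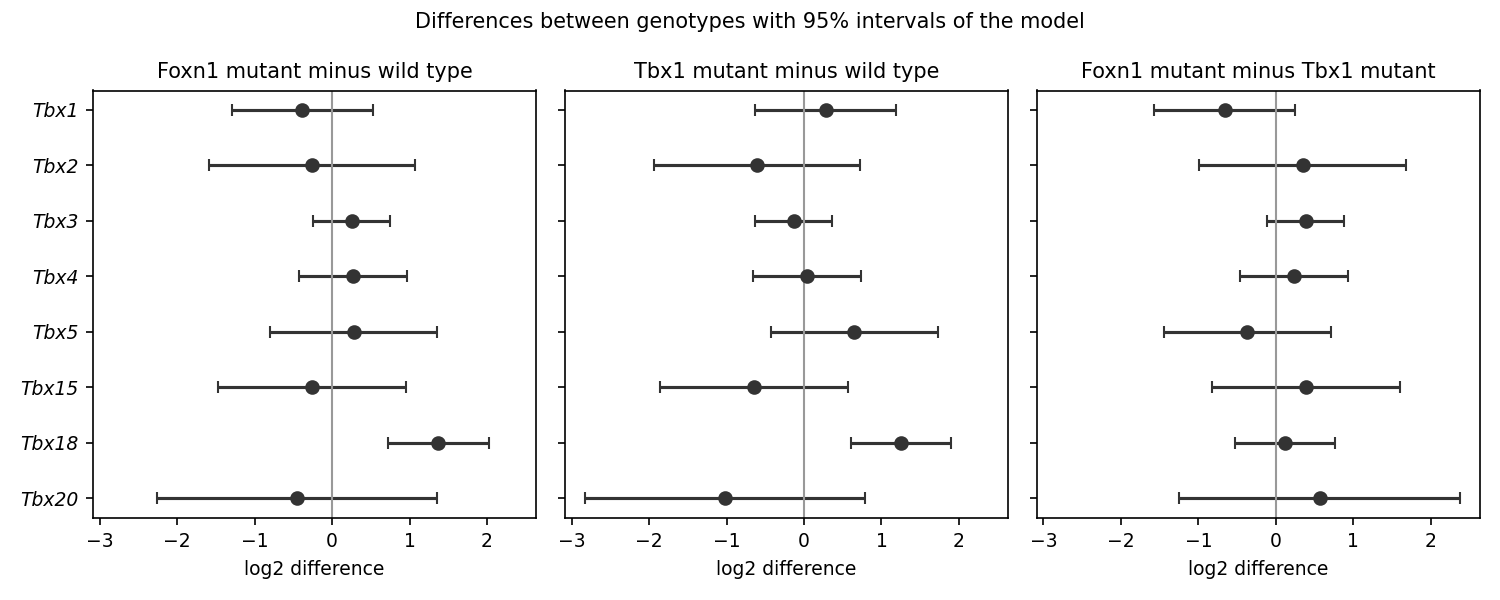
Log2 difference of each member (horizontal axis) in the 3 comparisons; points are model estimates and bars their unadjusted 95% intervals, with 3 arrays per genotype. The bars of Tbx18 lie above 0 in both comparisons with wild type, and all other bars cross 0.

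Tbx1 itself, the targeted gene of the Tbx1 mutants, comes first. Its values for replicates 1 to 3 were 5.85, 4.25 and 4.54 (wild type), 4.07, 4.83 and 4.61 (Foxn1 mutants) and 5.38, 4.80 and 5.30 (Tbx1 mutants), and values of other genes follow the same order. The genotypes overlap, and the highest value is on the wild type array with neuronal genes. The Tbx1 mutants differed from wild type by 0.28 ± 0.41 (SE; adjusted p = 1.00; 95% interval -0.64 to 1.19), and the Foxn1 mutants by -0.38 ± 0.41 (-0.06 ± 0.29 without the 2 arrays that stood apart). Without those arrays the difference of the Tbx1 mutants was 0.76 ± 0.27 (adjusted p = 0.505), with every Tbx1 mutant array above the remaining wild type arrays. This order rests on few arrays near background, and its share over all clusters was not computed. Within the date codes in the sample titles (A, B and C, of unstated meaning) the difference was 0.84 in A and -0.80 in C. In code C the wild type array is the one with neuronal genes. Where the probes of this cluster lie relative to the change in the neo2 allele was not analysed here. A lower Tbx1 level in the Tbx1 mutants was not detectable at this signal.

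Tbx18 had the lowest unadjusted p of the 8 members in both comparisons with wild type. This factor acts in the mesenchyme of ureter and somites and in the epicardium. Its values were 5.38, 5.30 and 5.95 (wild type), 7.14, 7.16 and 6.44 (Foxn1 mutants) and 6.66, 6.56 and 7.17 (Tbx1 mutants). All 6 mutant arrays lay above all 3 wild type arrays, as 1.45% of all clusters did, and the mutant genotypes overlapped each other.

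The sequence before the start of Tbx18 is shown because it is the member described in most detail. In the promoter table from RefSeq (GRCm38.p6), 4 of the 8 members had an entry. The 250 bases before the Tbx18 start lie on the minus strand at chr9:87731261-87731510, with a GC content of 54%. Capitals mark a CCAAT box read on the other strand (ATTGG).
Tbx18: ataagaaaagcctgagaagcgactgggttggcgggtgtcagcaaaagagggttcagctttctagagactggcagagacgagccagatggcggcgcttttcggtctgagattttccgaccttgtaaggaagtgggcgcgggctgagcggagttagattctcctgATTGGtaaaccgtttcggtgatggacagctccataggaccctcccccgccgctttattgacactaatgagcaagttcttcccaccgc
CCAAT or ATTGG was found in 33.8% of 32851 promoter windows of this length. The T-box motif TCACACCT, searched on both strands, was in 1.12% of them and in 0 of the 5 windows of Tbx1 (2 starts), Tbx4, Tbx18 and Tbx20. These matches describe letters only, and the arrays do not measure the promoter.

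The genotype means of Tbx18 were 5.54 ± 0.35 in wild type, 6.92 ± 0.41 in Foxn1 mutants and 6.80 ± 0.33 in Tbx1 mutants (SD, n = 3 each). Foxn1 mutants minus wild type was 1.37 ± 0.29 (SE; 2.59-fold; adjusted p = 1.00), the sixth lowest p of all clusters. Tbx1 mutants minus wild type was 1.25 ± 0.29 (2.38-fold; adjusted p = 0.723). The mutants differed from each other by 0.12 ± 0.29, with a 95% interval of -0.53 to 0.77. So the difference from wild type was larger than the spread between arrays of a genotype but did not pass the test over all clusters. Both sides lay within the range of the negative controls. The wild type arrays were at percentile 57.7, 67.2 and 79.5 of them, and no mutant array exceeded percentile 89.8.

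Tbx18 was the 1 member of 8 whose arrays did not overlap between Foxn1 mutants and wild type (8.29% of all clusters did not) and the 1 member of 8 between Tbx1 mutants and wild type (9.45%); between the mutants it was 0 of 8 (8.92%). Within date code A the Foxn1 mutant array was 1.21 above the wild type array, and within code B the 2 Foxn1 mutant arrays were 1.49 above theirs. The Tbx1 mutants were 0.71 above wild type within code A and 1.48 within code C, where the wild type array is the one with neuronal genes. With any 1 array left out the difference lay between 1.25 and 1.61 for Foxn1 mutants and between 1.07 and 1.46 for Tbx1 mutants, and with both arrays that stood apart left out it was 1.17 ± 0.35 and 1.17 ± 0.32 (adjusted p = 0.870 and 0.403). The Y-linked gene Uty read 7.56 to 8.84 in wild type, 2.47 to 3.71 in the Foxn1 mutants, and 8.47, 3.45 and 3.66 in Tbx1 mutants 1 to 3. Between Foxn1 mutants and wild type, sex and genotype cannot be told apart, and between Tbx1 mutants and wild type the part of sex in the Tbx18 values was not tested.

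Tbx18 marks mesothelium as well as mesenchyme, and its values are set beside marker lists of both, the first picked after its values had been seen. The epicardium and mesothelium list (10 of 10 measured; Tbx18 is not in it) had a mean of 6.04 to 6.79 on the wild type arrays, 7.15 to 8.07 on the Foxn1 mutants and 7.06 to 8.23 on the Tbx1 mutants, with no overlap with wild type. Its median difference from wild type was 0.82 in Foxn1 mutants, with 9 of 10 genes positive, and 0.87 in Tbx1 mutants, with 7 of 10 positive; 0 of 10 passed the test in either. Without the 2 arrays that stood apart the medians were 0.73 and 0.83, with 9 of 10 positive in each. On every array 9 or 10 of the 10 genes lay over the negative-control median.

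Upk3b, a uroplakin of mesothelial cells, read 8.63, 5.62 and 9.63 in wild type. The Foxn1 mutants had 11.50, 12.78 and 10.94 and the Tbx1 mutants 11.48, 10.77 and 13.10. Every mutant array was above every wild type array. The difference was 3.78 ± 0.98 in Foxn1 mutants (SE; adjusted p = 1.00) and 3.82 ± 0.98 in Tbx1 mutants (adjusted p = 0.974). The same lack of overlap held for Upk1b (1.78 ± 0.58 and 2.02 ± 0.58), another uroplakin, and Bnc1 (1.27 ± 0.42 and 1.16 ± 0.42), a zinc finger factor of mesothelium, so that 3 of the 10 list genes had all 6 mutant arrays above wild type. Over all clusters 1.45% did, and in the mesenchyme list 3 of 13 genes did (Col3a1, Dcn and Lum). Wt1, the epicardial and mesothelial regulator, had values of 5.52, 4.04 and 5.21 (wild type), 5.41, 6.66 and 5.25 (Foxn1 mutants) and 5.99, 5.87 and 7.63 (Tbx1 mutants), and the Tbx1 mutants did not overlap wild type. Sema3d, a guidance cue with a high mean in this list, was at -0.12 and -0.49. Msln and Krt19, also in the list, were not raised in Tbx1 mutants. Msln read 4.60, 4.70 and 4.14 (wild type), 7.39, 4.70 and 4.61 (Foxn1 mutants) and 4.55, 4.36 and 4.45 (Tbx1 mutants). Krt19 read 5.20, 8.40 and 6.64 (wild type), 7.66, 7.10 and 6.78 (Foxn1 mutants) and 5.95, 6.37 and 7.10 (Tbx1 mutants).

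Across the 9 arrays Tbx18 and the mean of the mesothelial list had a Pearson r of 0.93 and a Spearman rho of 0.98. With the genotype means removed r was 0.86, and without the 2 arrays farthest from the median of the list (wild type 2 and Tbx1 mutant 3) it was 0.90 over 7 arrays. This list was picked out of 15 after its values had been seen, so the relation is a description and carries no p. Over the other lists r with Tbx18 ran from -0.58 (parathyroid) to 0.73 (mesenchyme), with 0.33 for pericytes and smooth muscle. The arrays share the genotype difference, the dissection and the normalization. The mesenchyme list (13 of 14 measured) had an r of 0.73 with Tbx18 (rho 0.90; 0.57 with the genotype means removed; 0.72 without Foxn1 mutant 2 and wild type 2). Its mean was 8.05 to 8.55 in wild type, 8.61 to 9.78 in Foxn1 mutants and 8.83, 8.56 and 9.004 in Tbx1 mutants. Its median difference from wild type was 0.61 in Foxn1 mutants (13 of 13 positive) and 0.42 in Tbx1 mutants (10 of 13 positive). In either, 0 of 13 passed the test. Without the 2 arrays that stood apart the list's medians were 0.40 and 0.50, with 10 of 13 and 11 of 13 positive. Among its genes the matrix proteoglycan Dcn was at 1.53 ± 0.27 and 1.56 ± 0.27 against wild type (adjusted p = 1.00 and 0.213), and Lum, a second proteoglycan, at 0.98 and 0.80. The part of mesothelial or mesenchymal cells in the Tbx18 values was not tested.

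**Figure D3:**
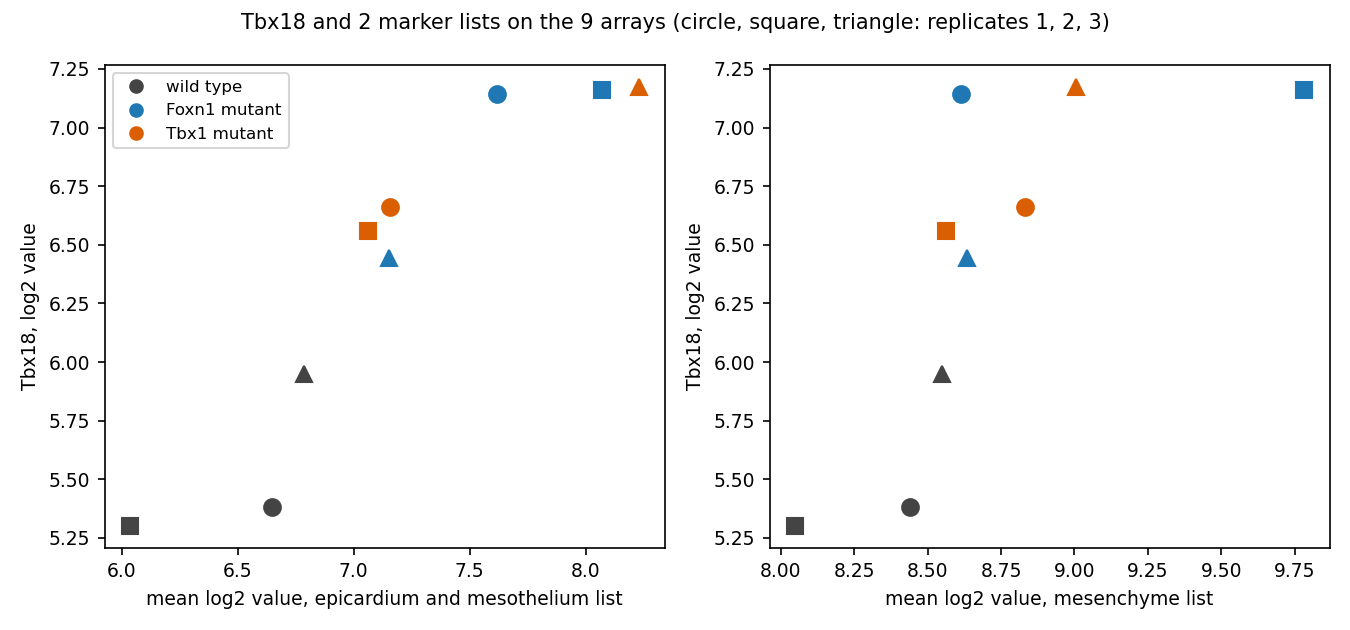
Tbx18 (vertical axis, log2 value) against the mean log2 value of the epicardium and mesothelium list (left) and of the mesenchyme list (right) on the 9 arrays; colours mark genotypes and symbols replicates. The 3 wild type arrays are lowest on both axes in each panel.

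The genes whose pattern over the 9 arrays was most like that of Tbx18, among 10104 clusters with a symbol and a mean at or above the median, were Susd2 (r = 0.99), a sushi domain membrane protein, Bambi (r = 0.95), a pseudoreceptor that dampens BMP and TGF-beta signals, and Slitrk4 (r = 0.93). Susd2 read 7.39 to 7.91 in wild type and 8.31 to 8.87 on the mutant arrays. Bambi read 6.997 to 8.08 in wild type and 8.18 to 9.44 on the mutants. Neither gene overlapped between wild type and mutants, and 1.45% of all clusters had all 6 mutant arrays above wild type. Both genes were picked for likeness to Tbx18, which has this order itself, so their order is no separate result.

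Tbx2, a repressor in pharynx, lung and heart development, was high on the 2 arrays with Prss16 near the negative controls. Its values were 11.20, 9.17 and 8.85 (wild type), 9.11, 10.26 and 9.06 (Foxn1 mutants) and 8.62, 9.21 and 9.57 (Tbx1 mutants). Wild type replicate 1 and Foxn1 mutant replicate 2 are the highest, and the other 7 arrays lie within 8.62 to 9.57. The genotype means were 9.74 ± 1.27, 9.48 ± 0.68 and 9.13 ± 0.48 (SD, n = 3), in the order wild type, Foxn1 mutant, Tbx1 mutant, and no neighbours in that order differed beyond their spread. The differences from wild type were -0.26 ± 0.59 and -0.61 ± 0.59 (SE; adjusted p = 1.00 for both). Without the 2 arrays they were 0.08 ± 0.32 and 0.12 ± 0.29, and without wild type replicate 1 alone 0.47 and 0.12.

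Tbx20, known from heart and motor neurons, had the same order at the top. Its values were 6.69, 3.79 and 3.98 (wild type), 3.90, 5.54 and 3.67 (Foxn1 mutants) and 2.95, 3.82 and 4.65 (Tbx1 mutants). The 3 arrays over the negative-control median, at 6.69, 5.54 and 4.65, are also the 3 arrays with the highest Tbx2. The differences from wild type were -0.45 ± 0.81 and -1.02 ± 0.81 (SE; adjusted p = 1.00 for both), and -0.10 ± 0.46 and -0.08 ± 0.42 without the 2 arrays.

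The 2 arrays form a cluster of their own in Tbx2 and Tbx20, so no pooled correlation is given; over the other 7 arrays r was 0.86 and rho 0.54, with Tbx20 near background on all of them. On those 7 arrays the thymic epithelium list had a mean of 10.77 to 11.24 (7.56 and 7.69 on the 2), and the leukocyte list 7.53 to 8.88 (5.33 and 5.31). The neuron and glia list was high on wild type replicate 1 (11.32) and not on Foxn1 mutant replicate 2 (5.96), and the reverse held for the heart muscle list (4.44 and 6.92). Isl1, a factor of sympathetic neurons and of the second heart field, read 12.72 and 9.16 on these arrays and 8.48 to 8.81 on the rest. The part of neurons, heart cells and the lower thymic epithelial and leukocyte genes in these values was not tested.

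**Figure D4:**
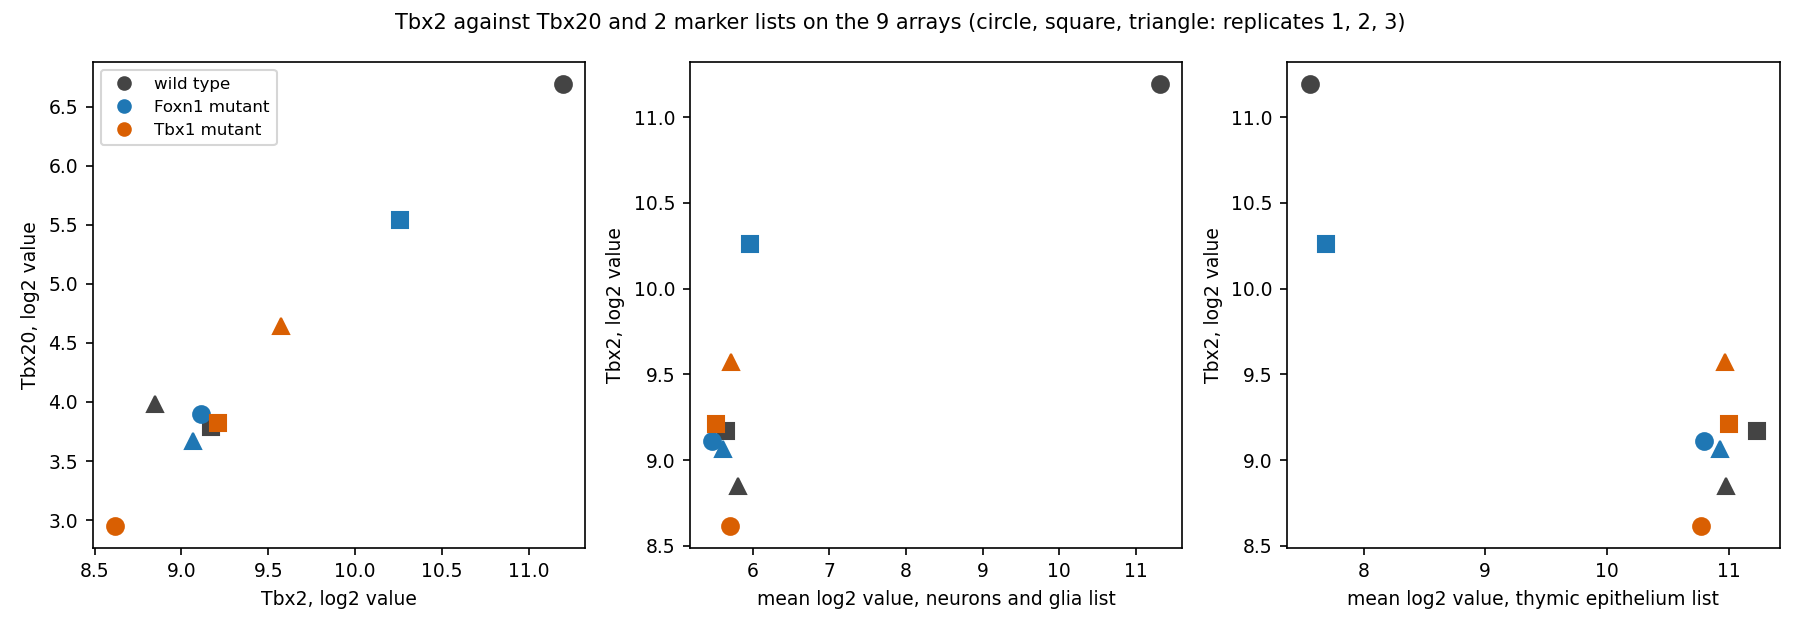
Log2 value of Tbx2 against that of Tbx20 (left), and Tbx2 against the mean log2 value of the neuron and glia list (middle) and of the thymic epithelium list (right), on the 9 arrays. Wild type replicate 1 and Foxn1 mutant replicate 2 have the highest Tbx2 and Tbx20 and the lowest thymic epithelium mean (7.56 and 7.69).

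By likeness over the 9 arrays Tbx2 went with Cilk1 (r = 0.98), a kinase of cilia, and with Gm3317 and Gm3488 (r = 0.97 for both, whose values are identical on all arrays). Gm3317 read 10.04 and 9.01 on the 2 arrays that stood apart and 6.89 to 7.79 on the other 7. Over these 7 arrays r was 0.81 for Cilk1 and 0.66 for Gm3317 and Gm3488.

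Tbx5, which acts in heart, lung and forelimb, had single high arrays in each mutant. Its values were 5.12, 5.28 and 4.59 (wild type), 4.87, 6.13 and 4.83 (Foxn1 mutants) and 5.23, 5.06 and 6.64 (Tbx1 mutants). Foxn1 mutant replicate 2 and Tbx1 mutant replicate 3 are high, and the rest of the mutant arrays lie within 4.83 to 5.23, among the wild type values. The same 2 arrays had the highest Upk3b (12.78 and 13.10) and Wt1 (6.66 and 7.63). Gata4, which works with Tbx5 in the heart, read 8.21 on Tbx1 mutant replicate 3 and 4.49 to 6.44 elsewhere. The differences of Tbx5 from wild type were 0.28 ± 0.48 and 0.65 ± 0.48 (SE; adjusted p = 1.00 for both). The first was -0.15 without Foxn1 mutant replicate 2, and the second 0.15 without Tbx1 mutant replicate 3; without the 2 arrays that stood apart they were -0.09 ± 0.50 and 0.71 ± 0.45. The part of mesothelial cells in these values was not tested. Tbx5 was most like Slc24a3 (r = 0.91), a sodium-calcium exchanger, Tgfb3 (r = 0.90), a TGF-beta ligand, and Col11a1 (r = 0.90), a fibrillar collagen.

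Tbx4, a factor of hindlimb and lung mesenchyme, was near background throughout, at 4.35 to 4.86 in wild type, 4.21 to 5.43 in the Foxn1 mutants and 4.42 to 4.83 in the Tbx1 mutants. Its highest array was again Foxn1 mutant replicate 2. The differences from wild type were 0.27 ± 0.31 and 0.04 ± 0.31 (SE). The first was -0.03 without Foxn1 mutant replicate 2, and without the 2 arrays that stood apart they were 0.12 ± 0.28 and 0.19 ± 0.25. Tbx2 and Tbx4 are neighbours on chromosome 11, and Tbx3 and Tbx5 on chromosome 5, with 0 protein-coding genes between them in each pair. The first pair had an r of 0.65 over the 9 arrays (0.59 without the 2 arrays that stood apart) and the second one of -0.09. The genes most like Tbx4 were Pomgnt1 (r = 0.97), a glycosyltransferase, the deacetylase gene Hdac9 (r = 0.93) and Cul7 (r = 0.92), a cullin, with r of 0.92, 0.80 and 0.75 over the 7 arrays.

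Tbx3, the close relative of Tbx2, had the smallest spread of the 8 members, with an SD of 0.26 over the 9. Its values were 4.51, 4.77 and 4.83 (wild type), 5.22, 5.09 and 4.58 (Foxn1 mutants) and 4.50, 4.70 and 4.53 (Tbx1 mutants). The genotypes overlap, and the differences from wild type were 0.25 ± 0.22 and -0.13 ± 0.22 (SE), and 0.39 ± 0.22 between the mutants (95% interval -0.11 to 0.88). Without the 2 arrays that stood apart the values were 0.09 ± 0.26, -0.23 ± 0.24 and 0.32 ± 0.24. Unlike Tbx2, it was not high on wild type replicate 1, where it lay 0.42 under the negative-control median. The nearest patterns were those of Ift74 (r = 0.92), a cilium transport gene, Fbxo36 (r = 0.90) and the homeobox gene Irx3 (r = 0.90).

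Tbx15, which acts in the mesenchyme of skin and skeleton and in muscle fibres, was high on a single array. Its values were 5.14, 6.12 and 3.60 (wild type), 4.67, 4.65 and 4.76 (Foxn1 mutants) and 4.57, 3.70 and 4.65 (Tbx1 mutants). The highest array, wild type replicate 2, had the highest skeletal muscle list mean (8.30; 4.14 to 5.91 elsewhere), with Myog, the regulator of muscle differentiation, at 11.45. The part of muscle in this value was not tested. The differences from wild type were -0.26 ± 0.54 and -0.65 ± 0.54 (SE; adjusted p = 1.00 for both), 0.32 and -0.06 without wild type replicate 2, and -0.14 ± 0.69 and -0.55 ± 0.63 without the 2 arrays that stood apart. F11r (r = 0.93), a junction protein, Klhl13 (r = 0.92) and Erv3 (r = 0.90) were most like it. Tbx1 was most like Gnb4 (r = 0.94), a G protein subunit, Tnks (r = 0.93), a tankyrase, and Phtf1 (r = 0.92). Over the 7 arrays the r of the genes named for Tbx1, Tbx3, Tbx5, Tbx15 and Tbx18 lay between 0.87 and 0.98. All genes named by likeness were the highest by r among 10104 over 9 arrays that include these 7. Their r over 7 arrays is therefore no independent check, and whether it exceeds what unrelated genes would reach was not tested.

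Of the rest of the family, 8 genes were measured, and 0 of 8 passed the test in any comparison. Mga, a MAX-binding factor with a T-box, read 9.77 to 11.03 and lay over the negative-control median on all 9 arrays. Tbx21, the T-bet factor of lymphocytes, read 3.49 to 5.07 and lay over it on 3. Tbr1, Eomes, Tbx6, Tbx10, Tbx19 and Tbx22 lay over it on 0. In the Tbx1 pathway of the pharynx, 0 of 19 measured genes passed the test in any comparison, with a median difference of 0.13 in Foxn1 mutants and 0.06 in Tbx1 mutants against wild type (0.01 and 0.13 without the 2 arrays that stood apart).

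Among the Tbx1 pathway genes, Fgf8, the ligand gene that TBX1 activates in the pharynx, read 2.33 to 2.81 and lay under the negative-control median on all arrays. Fgf10, a second FGF ligand target, read 6.24 to 7.05 in wild type, 6.39 to 8.26 in Foxn1 mutants and 6.43 to 6.73 in Tbx1 mutants. Eya1, a coactivator upstream of pouch patterning, read 15.40, 12.25 and 12.02 in wild type. The Foxn1 mutants had 11.86 to 13.04 and the Tbx1 mutants 11.31 to 11.89. The Tbx1 mutants did not overlap wild type (9.45% of all clusters did not), with a difference of -1.58 ± 0.78 (SE) that was not called. Chd7, a chromatin remodeller that interacts genetically with Tbx1, read 12.10 to 13.05 in wild type, 11.39 to 11.71 in Foxn1 mutants and 12.17 to 12.54 in Tbx1 mutants, with a difference of -1.03 ± 0.26 in Foxn1 mutants (SE; adjusted p = 1.00). Cyp26b1, which breaks down retinoic acid, was at -0.97 ± 0.23 in Foxn1 mutants (adjusted p = 1.00) and 0.03 ± 0.23 in Tbx1 mutants, near background in each. Among 16 measured cofactors of T-box factors 0 passed the test in any comparison. Gata6, a zinc finger partner, was the 1 gene of 16 with all 6 mutant arrays (4.66 to 5.88) above wild type (3.91 to 4.66). Over all clusters 1.45% had this order. The nearest mutant and wild type arrays of Gata6 are equal to 2 decimals, and it lay under the negative-control median on wild type replicates 1 and 2.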

How the data were processed

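The authors deposited log2 expression values of 9 Clariom S arrays, and these were used as given. Per the labels' protocols, total RNA was amplified and labelled with biotin by Affymetrix whole-transcriptome kits. The sources used here do not give the software, the normalization or the genome build. Of 28846 features, 6640 controls were left out (5222 of them negative controls), leaving 22206 transcript clusters, named through the platform annotation. Where several clusters carried a symbol, the cluster of highest mean stood for it. A linear model with a term per genotype was fitted to all 9 arrays across all clusters with limma 3.58.1 in R 4.3.3, with two-sided moderated tests and Benjamini-Hochberg adjustment. The fit was run on simulated data with independent noise, and recovery was required only for added effects far larger than the members' differences. That run does not show whether differences of the members' size would be found. The precision is limited by 3 arrays per genotype; array medians lay between 5.09 and 5.20.

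The members and 15 other gene lists were chosen with earlier results of these data known. Named genes are the members, the other T-box genes, called genes and the 2 of highest mean of a list, and the 3 most like each member that exceeded the negative-control median on at least 5 arrays. Other genes were named after their values were seen (Upk1b, Bnc1, Wt1, Msln, Krt19, Col3a1, Gata4, Gata6, Isl1, Myl7, Fgf8, Fgf10, Cyp26b1, Prss16 and Uty). Alternatives were quantile normalization, median centring, a filter on low means (11103 clusters left), the date code as a block (fixed or random), trend and robust moderation, weights per array, only the arrays compared, a floor at the negative-control median, and leaving out each array. Leaving out 2 arrays together was added after seeing the data. Figures were drawn with matplotlib 3.10.9.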

Additional observations from a re-analysis of the deposited data

How the results depend on the processing

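The count of members called was 0 in each comparison and in the F test under every alternative that was run. The lowest adjusted p of Tbx18 over these alternatives was 0.537 between Foxn1 mutants and wild type and 0.403 between Tbx1 mutants and wild type, and its difference lay between 1.17 and 1.61 in the first and between 1.07 and 1.46 in the second. Added over the 8 members on 9 arrays, 56 of the values exceeded the negative-control median of their array, and 9, all of Tbx2, exceeded the 95th percentile. Of all clusters, 52.6% to 58.4% exceeded the median and 16.4% to 28.3% the 95th percentile, depending on the array. Tbx3 and Tbx18 kept the sign of their differences from wild type under every alternative run. Tbx1, Tbx2, Tbx4, Tbx5, Tbx15 and Tbx20 changed sign in at least 1 of these comparisons under some alternative, and none of these differences was called. With the date code as a fixed block, Tbx20 in Tbx1 mutants minus wild type was -2.003, against -1.02 without it. Within code C, where the wild type array is the one with neuronal genes, this difference was -2.46. Without that array (wild type replicate 1) and without the block it was -0.08. The filter on low means kept Tbx2, Tbx5 and Tbx18 only. Leaving out the 2 arrays together was chosen after seeing the data. No alternative cluster could be tried, since each member has 1. The date codes A, B and C hold different genotypes in part, so code and genotype are not fully separate.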
